A study of Mus musculus with 2 samples.

Results

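The genes described here are 10 genes of the Nrf2 antioxidant and glutathione system, out of 31053 genes in the count tables: Nfe2l2, Keap1, Slc7a11, Gclc, Gclm, Txnrd1, Srxn1, Prdx1, Prdx6 and Nqo1. All 10 were found by symbol. They were chosen by their symbols with the difference between retinopathy and control microglia of these libraries already known, and Slc7a11 and Srxn1 had been among the genes with the highest ratios there, so the values of that contrast are given as a description. The series compared CD11b-selected retinal cells from oxygen-induced retinopathy (OIR), a mouse model of ischaemic retinopathy, with cells from control mice. The OIR group was wild-type C57BL/6 pups kept in 75% oxygen from postnatal day 7 to 12, returned to room air and killed at postnatal day 17. The control group was wild-type C57BL/6 mice of the same age, postnatal day 17. Retinas of 6 mice were pooled in each group, digested with papain, selected with CD11b magnetic beads and run as 1 droplet library per group. With 1 library per group there was no replicate, no test was possible and no p-value is given; intervals cover counting error only.

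Nrf2, the protein of Nfe2l2, is a transcription factor that Keap1 holds in the cytoplasm and marks for degradation; oxidants and electrophiles modify Keap1, and Nrf2 then enters the nucleus, pairs with small Maf proteins and binds antioxidant response elements. Its classical targets import cystine (Slc7a11), make glutathione (Gclc and Gclm), keep thioredoxin and peroxiredoxins reduced (Txnrd1, Srxn1, Prdx1) and reduce quinones (Nqo1). Nrf2 is controlled mainly through the stability of the protein. In the retina, Müller glia are known for high glutathione content, and microglia clear debris and red cell remnants that carry haem and iron.

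After filtering, 6132 OIR cells and 8585 control cells remained, with median depths of 2828.5 UMIs in OIR and 1648 UMIs in control (unique molecular identifiers, each counting 1 captured transcript). The libraries shared 89 barcodes, 30 of them among the cells kept. Although the label calls the material retinal microglia, microglia-like cells made up 10.7% of OIR cells (655 cells) and 10.0% of control cells (860 cells), and rod-like cells 57.9% (3553) and 77.9% (6691). All 16 microglia markers were detected in the microglia-like cells of both libraries, and they summed to 35782 CPM in OIR and 46534 CPM in control. CPM stands for counts per 1e6, that is the UMIs of a gene scaled to the pooled UMIs of a class within 1 library; its intervals are exact 95% Poisson intervals. CPM is not corrected for transcript length, so levels are compared for 1 gene at a time. The other classes of more than 200 cells in each library were cone-like (602 OIR and 284 control cells), bipolar-like (493 and 287) and Müller glia-like (308 and 252). In clusters left unnamed there were 335 OIR and 154 control cells, which enter no class value.

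The promoter windows of the members are shown first, because the antioxidant response element is the sequence through which Nrf2 acts. RefSeq windows (GRCm38.p6, 250 bases before to 50 after a transcript start) were at hand for 8 members in 10 windows, since Txnrd1 had 3. The element's core, TGACNNNGC, read on both strands, was present in 5 of these 10 windows, and in 12.4% of all 32851 windows. Each match is printed with 10 bases on either side, 5′ to 3′ on the gene's strand, with the match in capitals; on the opposite strand the core reads GCNNNGTCA. The genes are Nfe2l2 (chr2:75704885-75704913, minus strand), Gclm (chr3:122245413-122245441, plus strand), Txnrd1 (chr10:82859104-82859132, plus strand), Srxn1 (chr2:152105542-152105570, plus strand) and Prdx1 (chr4:116685456-116685484, plus strand).
Nfe2l2: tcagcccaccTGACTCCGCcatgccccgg
Gclm: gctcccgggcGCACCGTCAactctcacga
Txnrd1: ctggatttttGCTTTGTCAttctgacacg
Srxn1: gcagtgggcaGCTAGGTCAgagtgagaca
Prdx1: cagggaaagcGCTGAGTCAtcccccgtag
The windows of Keap1, Slc7a11 and Nqo1 held no match to these letters, and Gclc and Prdx6 are named only.

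In microglia-like cells 9 members were measured, that is had at least 20 CPM in 1 library. Of these, 6 were at least 1.5-fold higher in OIR than in control and 1 was lower, with a counting interval of the ratio that excluded no difference. The genes above were Slc7a11, Gclm, Txnrd1, Srxn1, Prdx1 and Prdx6, that is the cystine importer, the regulatory subunit of glutathione synthesis and the thioredoxin and peroxiredoxin branch. Nfe2l2, the transcription factor itself, was the lower gene, and Keap1 and Gclc lay between the limits. By the same rule 11.6% of the 6079 genes measured in this class were higher in OIR and 17.6% lower; since the members were chosen on this contrast, their count is a description. Of the genes past the rule, 39.7% were higher in OIR with scaling to total UMIs and 50.7% with median-of-ratios scaling.

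Of the regulators, Nfe2l2 stood at 118 CPM in OIR (793 UMIs) and 179 CPM in control (1226 UMIs), a log2 ratio of -0.61 (95% counting interval -0.74 to -0.48). Keap1, the adaptor that targets Nrf2 for degradation, stood at 42.2 CPM in OIR and 31.5 CPM in control, a log2 ratio of 0.42 (0.16 to 0.69). The OIR library was thus below control for the factor and above it, within 1.5-fold, for its inhibitor. The lower call of Nfe2l2 was close to the limit and was lost with median-of-ratios scaling, where the log2 ratio was -0.52.

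Of the cystine and glutathione genes, Slc7a11, the light chain of the cystine and glutamate exchanger xCT, stood furthest apart. It had 88.8 CPM in OIR (598 UMIs) and 3.51 CPM in control (24 UMIs), a log2 ratio of 4.66 (4.07 to 5.31). Gclm, the modifier subunit of glutamate-cysteine ligase, had 299.8 CPM in OIR (2018 UMIs) and 37.0 CPM in control (253 UMIs), a log2 ratio of 3.02 (2.83 to 3.21). Gclc, the catalytic subunit of the same enzyme, had 66.7 CPM in OIR and 48.2 CPM in control, a log2 ratio of 0.47 (0.26 to 0.68), so the intervals of the ratios of these subunits did not overlap. Computed as a mean of per-cell CPM, in which each cell weighs equally, the ratio of Gclc was -0.14.

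The Slc7a11 gene lies at chr3:49892526-50443614 on the minus strand and Gclm at chr3:122245557-122270732 on the plus strand (GRCm38).

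In the thioredoxin branch Srxn1 (chr2:152105516-152111376, plus strand), which repairs overoxidised peroxiredoxins, had 87.5 CPM in OIR (589 UMIs) and 4.98 CPM in control (34 UMIs), a log2 ratio of 4.14 (3.64 to 4.68). Prdx1, a cytosolic peroxidase, had 1725 CPM in OIR (11612 UMIs) and 336 CPM in control (2292 UMIs), a log2 ratio of 2.36 (2.30 to 2.43). Txnrd1, which returns electrons to thioredoxin, had 117 CPM in OIR (785 UMIs) and 28.7 CPM in control (196 UMIs), a log2 ratio of 2.02 (1.80 to 2.26). These 3 genes act in sequence on the same peroxide-reducing cycle, and OIR was higher for each. Prdx6, a peroxiredoxin that uses glutathione in place of thioredoxin, had 119 CPM in OIR and 35.6 CPM in control, a log2 ratio of 1.74 (1.53 to 1.95).

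Nqo1, the quinone reductase often used as the reference Nrf2 target, was barely detected in microglia-like cells. It had 14 UMIs in 9 of 655 OIR cells and 0 UMIs in 860 control cells. Set against a floor of 3 UMIs in the control library, this was 4.74-fold higher in OIR, leaving out the counting error of the 14 UMIs. The OIR level of 2.08 CPM lay far below the 20 CPM minimum. A count of 0 allows up to 3 UMIs, which is 0.439 CPM in control microglia-like cells.

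**Figure D1:**
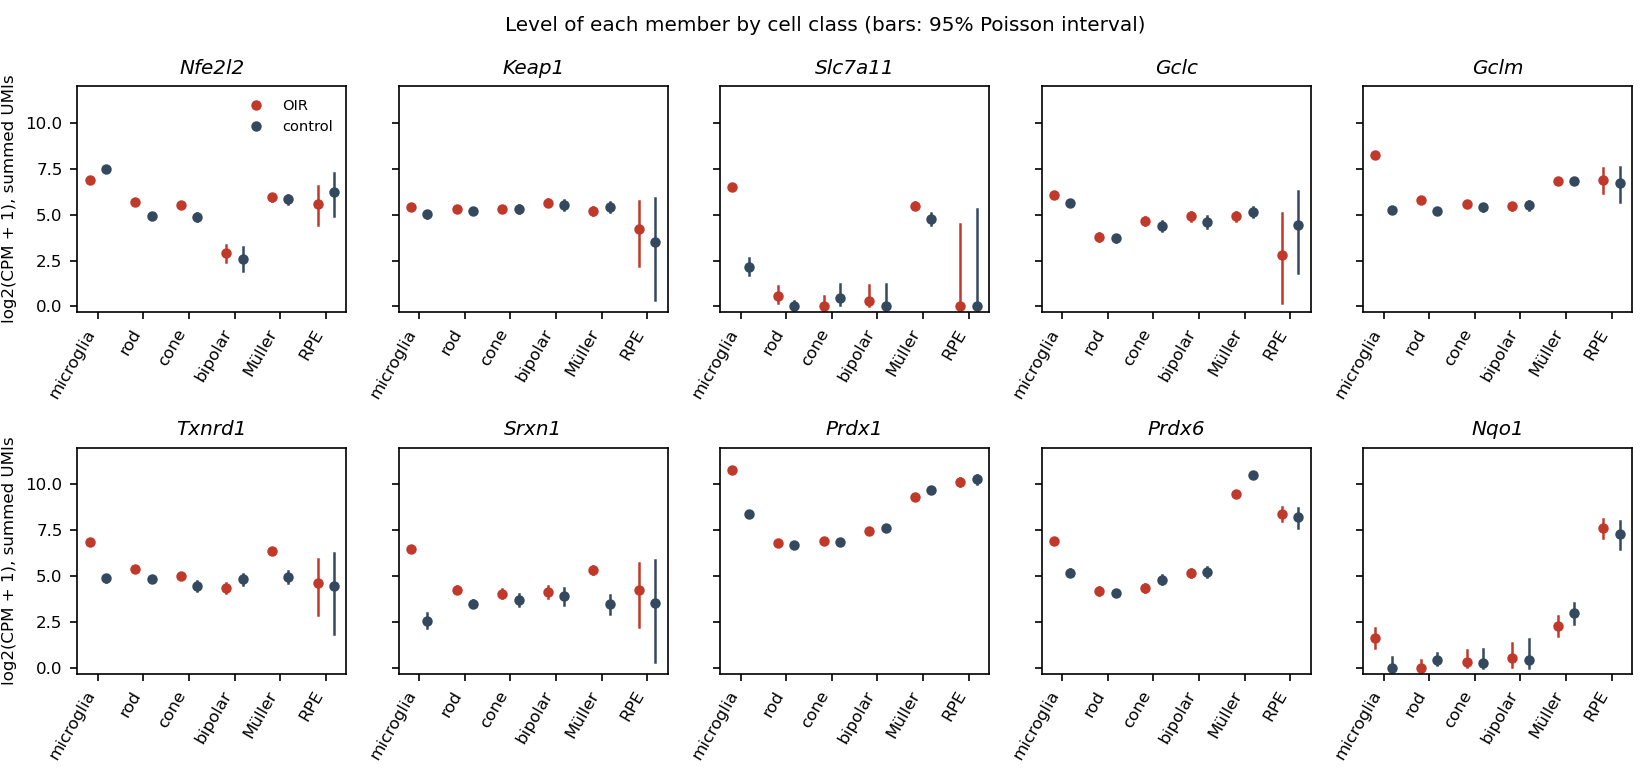
Level of the 10 members in 6 cell classes, as log2(CPM + 1) of pooled UMIs; OIR (red) stands left of control (dark), and bars are 95% Poisson intervals from 1 library per group. Slc7a11, Gclm, Txnrd1, Srxn1 and Prdx1 lie higher in OIR microglia-like cells, Prdx6 is highest in Müller glia-like cells with OIR below control, and Nqo1 is highest in pigment epithelium-like (RPE) cells.

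The microglia-like cells of the libraries were not in the same states. The homeostatic state, made of 3 clusters, among them 1 led by Selplg and Tmem119 and 1 led by Ccl4 and Ccl3, held 96 OIR and 634 control cells. The Spp1-high state, led by Mmp12 or by Cst7 and Lgals3, held 188 OIR and 37 control cells, and a mixed cluster led by Ube2c, Birc5, Cst7 and Lgals3 held 156 OIR and 4 control cells. A cycling cluster led by Top2a and Mki67 held 141 OIR and 59 control cells. Members and the wider antioxidant genes were left out of the clustering, so these states do not rest on them. Haemoglobin and other erythroid markers moved with the states: 6 such genes summed to 9517 CPM in OIR Spp1-high cells and 15.7 CPM in control Spp1-high cells, to 174 CPM in OIR and 5.33 CPM in control homeostatic cells, and over all microglia-like cells to 4685 CPM in OIR and 5.42 CPM in control. Their part in the member values was not tested.

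Among the OIR microglia-like clusters with at least 10 cells, Gclm, Txnrd1, Srxn1, Prdx1 and Prdx6 had their 2 highest levels in the Mmp12-led and Ube2c-led mixed clusters. In the Mmp12-led cluster, with 125 OIR cells, Prdx1 had 2443 CPM, Gclm 484 CPM, Prdx6 172 CPM, Txnrd1 154 CPM, Srxn1 148 CPM and Slc7a11 126 CPM. Control gave 1 cell to this cluster, so no comparison was possible in it. In the 156 OIR cells of the mixed cluster Prdx1 reached 3379 CPM and Gclm 346 CPM, while Slc7a11 stood at 19.6 CPM. Prdx1 and Gclm were therefore high in both clusters, and Slc7a11 in the Mmp12-led cluster only of these clusters. Without the Spp1-high and mixed states, an alternative added after seeing the data, the log2 ratio in the remaining microglia-like cells was 4.32 for Slc7a11, 2.92 for Srxn1, 1.93 for Gclm, 1.63 for Txnrd1, 1.28 for Prdx1 and 0.77 for Prdx6. The same 6 members were past the rule there, and Nfe2l2, at -0.50, was not. With each state given the same weight in both libraries, which includes states with as few as 4 control cells, the ratio was 1.30 for Gclm, 1.01 for Prdx1, 0.70 for Txnrd1, 1.16 for Prdx6, 3.34 for Srxn1, 5.02 for Slc7a11, 0.60 for Keap1 and -0.27 for Nfe2l2. These weighted ratios have no counting interval, so the rule was not applied to them. Among the 37 control Spp1-high cells, the richest cell held 34 of 38 Gclm UMIs, and for Prdx1 117 of 155 UMIs. The part of such single cells in the weighted ratios was not tested.

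In the cycling cluster 141 OIR and 59 control cells could be compared. There 5 of the 9 members measured were higher in OIR by the rule and 1 was lower, against 7.79% and 5.91% of 5970 genes. Gclm had 146 CPM in OIR (296 UMIs) and 45.2 CPM in control (28 UMIs), a log2 ratio of 1.69 (1.13 to 2.31). Slc7a11 had 64.2 CPM in OIR (130 UMIs) and 4.84 CPM in control (3 UMIs), a log2 ratio of 3.73 (2.15 to 6.03), but 82 of the 130 OIR UMIs lay in 4 of 141 cells. Without the 4 cells richest in it in each library its ratio was 2.29. The others above were Srxn1 (1.77), Txnrd1 (1.23) and Prdx1 (0.89). Nfe2l2 was lower, with 133 CPM in OIR and 200.01 CPM in control, a log2 ratio of -0.59 (-0.90 to -0.27). In this cluster the erythroid markers summed to 129 CPM in OIR and 3.23 CPM in control, and the rod markers to 1183 CPM in OIR and 813 CPM in control. The lower call of Nfe2l2 was lost without the 4 cells richest in it in each library, at -0.43, and without barcodes shared by the libraries.

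In the homeostatic state 5 of the 9 members measured were higher in OIR and none lower, against 13.2% and 7.01% of 6478 genes. This count of higher members rested on 1 of the 3 clusters. It was 0 as well without the 4 cells richest in each gene in each library. Rod markers summed to 7313 CPM in OIR and 2524 CPM in control homeostatic cells, and the 7 monocyte markers to 106 CPM in OIR and 2.41 CPM in control; without cells over 2% of rod UMIs the count was again 5, and the part of the monocyte markers was not tested. Slc7a11 had 103 CPM in OIR (85 UMIs) and 3.61 CPM in control (21 UMIs), but 81 of the 85 OIR UMIs came from 4 of 96 cells, with 35, 30, 9 and 7 UMIs each. In control 11 of the 21 UMIs came from 1 cell. All 4 OIR cells lay in the homeostatic cluster with most OIR cells. They held 6 to 134 UMIs of Hmox1, the haem oxygenase, and at most 2 UMIs of Tmem119. In that cluster (55 OIR and 102 control cells) the log2 ratio was 3.86 for Slc7a11, 2.73 for Srxn1, 1.57 for Gclm, 1.21 for Txnrd1 and 1.13 for Prdx1. Without it, 0 members were higher by the rule and 1, Nfe2l2, was lower at -0.82. The remaining clusters held 27 OIR cells led by Selplg and 14 led by Ccl4, against 343 and 189 control cells. In the Selplg-led cluster Prdx1 had 275 CPM in OIR and 272 CPM in control, a log2 ratio of 0.01 (-0.47 to 0.46), and Gclm had 1 UMI in OIR against 104 in control, a log2 ratio of -2.48 (-7.80 to 0.03).

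Of the Spp1-high clusters, the one led by Cst7, Lgals3 and Apoc1 was shared by the libraries, with 63 OIR and 36 control cells. Its highest marker score was for B cells, on only 2 detected markers, and it was named microglia-like as the best class with enough markers, so its name is uncertain. Prdx1 had 1346 CPM in OIR (371 UMIs) and 369 CPM in control (38 UMIs), a log2 ratio of 1.86 (1.38 to 2.39). Gclm had 174 CPM in OIR (48 UMIs) and 38.9 CPM in control (4 UMIs), a log2 ratio of 2.16 (0.71 to 4.10). Slc7a11 was not separable here, with 2 UMIs in OIR and 0 in control. In the cluster that met no state list, led by Gm38843 and Gng10 (74 OIR and 126 control cells), Prdx1 had 996 CPM in OIR and 479 CPM in control, a log2 ratio of 1.06 (0.70 to 1.42), and Slc7a11 had 0 UMIs in both libraries. Rod markers summed to 23278 CPM in the control cells of the Spp1-high state and to 3184 CPM in its OIR cells, and their part was not tested.

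**Figure D2:**
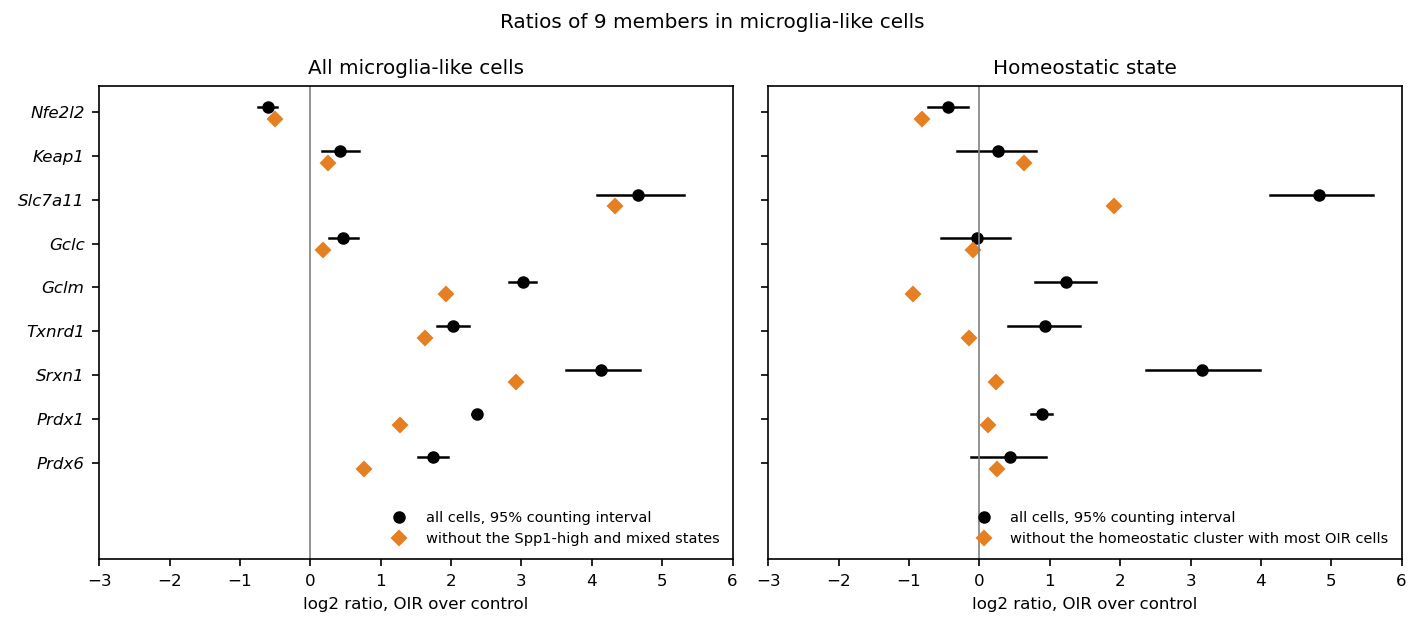
Log2 ratio of OIR over control for 9 members in all microglia-like cells (left) and in the homeostatic state (right); black points are all cells with their 95% counting interval, and orange diamonds leave out the Spp1-high and mixed states or the homeostatic cluster with most OIR cells. Leaving out the homeostatic cluster with most OIR cells moves Gclm from 1.24 to -0.95 and Srxn1 from 3.17 to 0.23 in the homeostatic state.

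**Figure D3:**
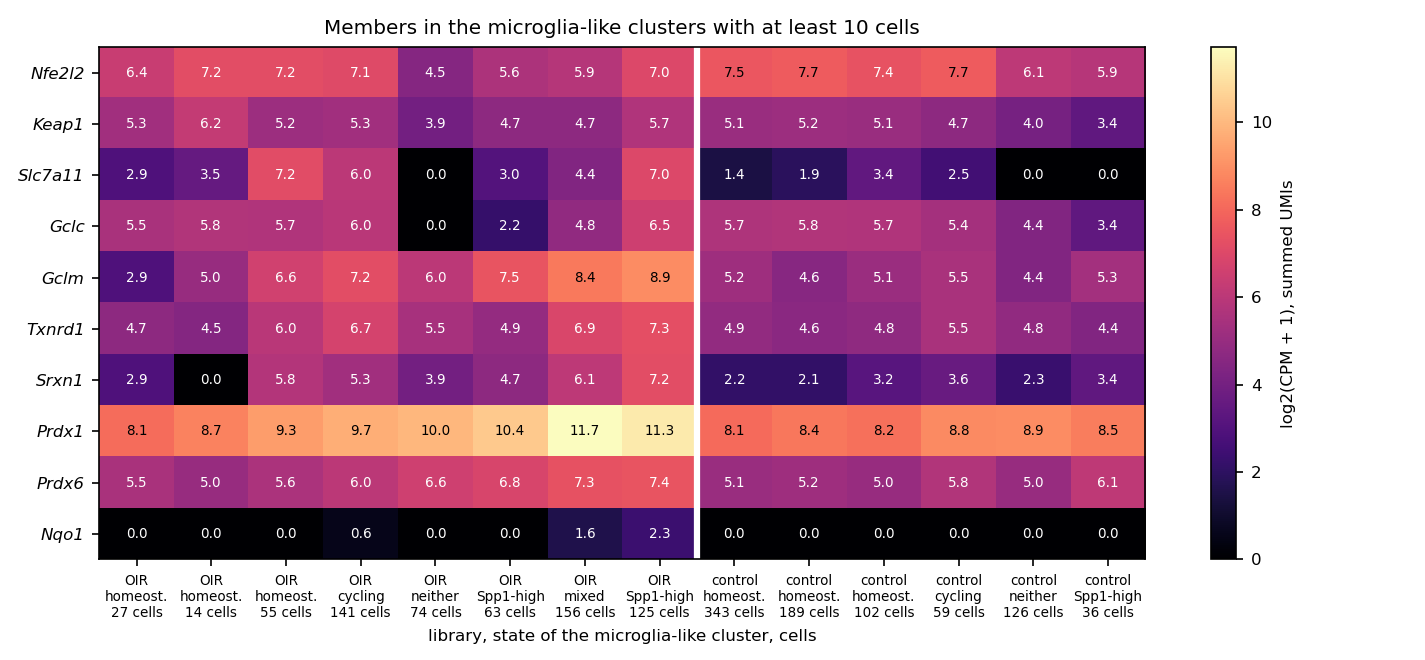
Members (down) in each microglia-like cluster with at least 10 cells in a library (across), OIR clusters left of control clusters, as log2(CPM + 1) of summed UMIs; each column names the state and the number of cells. The highest values of Gclm and Prdx1 lie in the OIR mixed cluster (156 cells) and an OIR Spp1-high cluster (125 cells), and Slc7a11 is high in OIR clusters of 55, 141 and 125 cells.

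UMIs of Slc7a11 and Srxn1 were concentrated in few cells. The tenth of OIR microglia-like cells with most Slc7a11 held 94.3% of its 598 UMIs, and for Srxn1 the share was 87.6%. The corresponding share was 76.1% for Gclm, 68.5% for Txnrd1, 66.5% for Prdx6, 64.8% for Keap1, 64.3% for Prdx1 and 50.3% for Nfe2l2. In control the share was 100% for both Slc7a11 and Srxn1, of which 11 and 31 of 860 cells held any UMI. After thinning every cell to 1500 UMIs, which left out 82 OIR and 58 control microglia-like cells, Slc7a11 was detected in 6.11% of OIR cells (35 of 573, exact interval 4.29 to 8.39%) and 0.623% of control cells (5 of 802). Before thinning these shares were 15.3% in OIR and 1.28% in control. Slc7a11 was thus found in a minority of cells of both libraries at either depth. In rod-like cells, which serve as background, the thinned share of Slc7a11 was 0.115% in OIR (2 of 1741) and 0 of 2931 in control, which allows up to 0.102%; rod-like cells had median depths of 1475 UMIs in OIR and 1401 in control, and microglia-like cells of 6268 in OIR and 6593 in control. Prdx1 was detected after thinning in 68.6% of OIR (393 of 573) and 38.3% of control microglia-like cells (307 of 802), and Gclm in 20.4% of OIR and 4.36% of control cells.

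Müller glia-like cells differed from microglia-like cells in which members were apart. Of the 9 members measured here, 3 were higher in OIR, Srxn1, Txnrd1 and Slc7a11, and 1, Prdx6, was lower, against 7.75% and 11.2% of 6854 genes. Srxn1 had 39.6 CPM in OIR (195 UMIs) and 10.1 CPM in control (29 UMIs), a log2 ratio of 1.97 (1.40 to 2.58). Txnrd1 had 81.9 CPM in OIR (403 UMIs) and 30.1 CPM in control (86 UMIs), a log2 ratio of 1.45 (1.11 to 1.80). Gclm had 114 CPM in both libraries, with a log2 ratio of 0.01 (-0.19 to 0.21). Slc7a11 had 43.7 CPM in OIR (215 UMIs) and 25.9 CPM in control (74 UMIs), a log2 ratio of 0.76 (0.37 to 1.16), but 103 of the 215 OIR UMIs lay in 4 of 308 cells. Its thinned share ran the other way, 2.99% in OIR and 5.67% in control, so no order is read from the share. With cells of at least 1000 genes and at most 5% mitochondrial UMIs, which left 135 OIR and 31 control cells, the ratio of Slc7a11 was -1.28.

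Prdx6 was the member that marked Müller glia-like cells. It had 711 CPM in OIR (3500 UMIs) and 1472 CPM in control (4208 UMIs), a log2 ratio of -1.05 (-1.11 to -0.98). These cells held 52.2% of all Prdx6 UMIs in OIR and 71.0% in control, counted over all kept cells, unnamed clusters included. An unnamed cluster of 151 OIR and 63 control cells had the Müller glia marker Rlbp1 among its leading genes, and its highest marker score was for rods. The part of cells left unnamed in the Prdx6 values was not tested. Prdx1 was also lower in OIR without passing 1.5-fold, at 627 CPM in OIR and 830.4 CPM in control, a log2 ratio of -0.41 (-0.48 to -0.33). Both peroxiredoxins were thus below control in Müller glia-like cells and above it in microglia-like cells. The 12 Müller glia markers themselves summed to 19355 CPM in OIR and 32513 CPM in control. Neutrophil markers summed to 320.5 CPM in OIR and 3.15 CPM in control. Rod markers summed to 30851 CPM in OIR and 26574 CPM in control. The median share of rod marker UMIs per cell was 2.0% in OIR and 0.121% in control. The part of these markers in the Müller values was not tested. Without cells over 2% of rod UMIs, which left 154 OIR and 180 control cells, Prdx6 was at -0.85, Srxn1 at 1.71 and Txnrd1 at 1.18.

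In rod-like cells 2 of the 5 members measured, Nfe2l2 and Gclm, were higher in OIR and none lower, against 4.14% and 1.31% of 6571 genes. Nfe2l2 had 49.9 CPM in OIR (499 UMIs) and 29.7 CPM in control (507 UMIs), a log2 ratio of 0.75 (0.56 to 0.93), the direction opposite to that in microglia-like cells. Gclm had 54.9 CPM in OIR (549 UMIs) and 36.0 CPM in control (613 UMIs), a log2 ratio of 0.61 (0.44 to 0.78). Srxn1, at 18.2 CPM in OIR and 10.4 CPM in control, stayed under the 20 CPM minimum with a ratio of 0.81 (0.50 to 1.12), and Txnrd1 had a ratio of 0.54 (0.34 to 0.73). Keap1, Gclc, Prdx1 and Prdx6 had ratios of 0.07 to 0.12. Median-of-ratios scaling shifted all ratios of this class by -0.10 and changed the share of higher genes among those past the rule to 51.5%, against 76.0% with totals; with it Nfe2l2 was at 0.65 and Gclm, no longer past the rule, at 0.51. Neither gene was past the rule with the stricter cell filter, at 0.54 for Nfe2l2 and 0.56 for Gclm, and Gclm was also within 1.5-fold with doublets kept (0.52), at clustering resolution 0.5 (0.57) and with members in the clustering (0.57). In these cells cone markers summed to 735 CPM in OIR and 233 CPM in control, and erythroid markers to 233 CPM in OIR and 11.4 CPM in control; their part in the ratios was not tested.

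A rod-like cluster led by Lad1, E2f6 and Pcolce held 738 of the OIR cells and 13 of the control cells. Without it, Nfe2l2 had a ratio of 0.61, Gclm of 0.46, no longer past the rule, Srxn1 of 0.75 and Txnrd1 of 0.50. Nfe2l2 was also higher in OIR in the rod-like cluster led by Gm14508 and Gm26518, with 57.1 CPM in OIR (43.7 to 73.4) and 28.4 CPM in control (20.6 to 38.3). In the cluster led by Eif2s3y and Ddx3y the intervals overlapped, with 39.7 CPM in OIR (25.7 to 58.6) and 32.4 CPM in control (27.6 to 37.8). Transcripts of Hmox1, which microglia-like cells held at 3552 CPM in OIR and 79.9 CPM in control, were counted in rod-like cells at 31.7 CPM in OIR and 1.35 CPM in control; the part of free RNA in the rod values was not tested. Slc7a11 had 5 UMIs in OIR and 0 UMIs in control rod-like cells, 0.50 CPM and 0 CPM.

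In cone-like cells Nfe2l2, higher in OIR as in rod-like cells, had 45.8 CPM in OIR (343 UMIs) and 28.4 CPM in control (149 UMIs), a log2 ratio of 0.69 (0.41 to 0.98). Of the 7 members measured it was the only one past the rule, against 3.03% of 6511 genes higher and 2.12% lower. Txnrd1, at 31.3 CPM in OIR and 21.0 CPM in control, lay at the 1.5-fold limit with 0.58 (0.24 to 0.92). Nfe2l2 was just outside that limit and Txnrd1 just inside it. In bipolar-like cells 0 of the 6 members measured were past the rule in either direction, against 4.18% of 7245 genes higher and 6.32% lower, and their log2 ratios ran from -0.48 for Txnrd1 to 0.31 for Gclc. Of all genes past the rule in bipolar-like cells 39.8% were higher in OIR, and 54.2% with median-of-ratios scaling.

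Some members had their highest levels in rarer classes. Nqo1 was highest in pigment epithelium-like cells, with 195 CPM in OIR (33 UMIs in 44 cells) and 157 CPM in control (15 UMIs in 28 cells), a log2 ratio of 0.31 (-0.61 to 1.30). Slc7a11 was highest in neutrophil-like cells, with 594 CPM in OIR (40 UMIs in 12 cells) and 850 CPM in control (69 UMIs in 9 cells), a ratio of -0.52 (-1.12 to 0.07). Neither gene was separable between the libraries in these cells. The neutrophil-like cells also held microglial transcripts. P2ry12 had 208 CPM in OIR and 1552 CPM in control, and Tmem119 89.1 CPM in OIR and 628 CPM in control. The part of these transcripts in the neutrophil-like values was not tested. In monocyte-like cells (23 OIR and 11 control) Prdx1 had 1137 CPM in OIR and 348 CPM in control, a ratio of 1.71 (1.23 to 2.22). Microglial transcripts differed in the opposite direction, P2ry12 at 16.02 CPM in OIR and 605 CPM in control and Tmem119 at 10.7 CPM in OIR and 265 CPM in control. The part of these transcripts in the monocyte-like values was not tested. Slc7a11 had 26.7 CPM in OIR (5 UMIs) and 24.9 CPM in control (3 UMIs). Border macrophage-like cells were 75 in OIR and 2 in control; the OIR cells held Prdx1 at 989 CPM, Nfe2l2 at 101 CPM, Gclm at 51.9 CPM and Slc7a11 at 2.16 CPM.

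Over the classes and states with at least 50 cells in a library, the order of levels differed between members. Slc7a11 was highest in OIR Spp1-high cells (116 CPM, 104 to 128) and OIR homeostatic cells (103 CPM, 82.0 to 127), whose intervals overlapped, then in OIR cycling cells (64.2 CPM, 53.6 to 76.2) and OIR Müller glia-like cells (43.7 CPM, 38.1 to 49.9). Few cells carried these levels. The 4 richest cells held 81 of 85 UMIs in OIR homeostatic cells and 82 of 130 in OIR cycling cells. In OIR Spp1-high cells they held 133 of 373, and in OIR Müller glia-like cells 103 of 215. The order of these states for Slc7a11 therefore rests on few cells. Gclm was highest in OIR Spp1-high cells (457 CPM, 434 to 481) and then OIR mixed cells (346 CPM, 297 to 401), which did not overlap. Nfe2l2 had the reverse order of libraries, with control cycling cells (200.01 CPM, 166 to 238) and control homeostatic cells (185 CPM, 174 to 197) first. The 3 highest points of Keap1, OIR border macrophage-like, OIR bipolar-like and OIR Spp1-high cells, lay between 48.9 and 49.8 CPM with overlapping intervals.

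Over 17 such points, each a class or state in 1 library, log2(CPM + 1) of the members was compared with that of other genes. These points share libraries and differ in depth, so the correlations are a description. The most alike pairs of members were Gclm with Srxn1 (Pearson r of 0.90), Gclm with Txnrd1 (0.88), Prdx6 with Nqo1 (0.86) and Txnrd1 with Srxn1 (0.85). Nqo1 lay under the 20 CPM minimum at every point. Nfe2l2 and Keap1 had r of -0.09, and Nfe2l2 had r of 0.24 with Gclm and 0.13 with Srxn1. With the other members, r of Nfe2l2 was 0.59 for Slc7a11, 0.46 for Txnrd1, 0.43 for Gclc, 0.42 for Prdx1, 0.17 for Prdx6 and 0.03 for Nqo1. Outside the members, Slc7a11 was most like Maff, a small Maf partner of Nrf2 (0.92), followed by Tes and Prr5l (0.89 and 0.88). The nearest genes were Adssl1, Mmp12 and Slc48a1 to Gclm (0.84 to 0.87), Mmp12, Acod1 and Hba-a1 to Srxn1 (0.81 to 0.86), and Lgals3, Egln3 and Anxa2 to Txnrd1 (0.82 to 0.87). To Prdx1 they were Gsn, Smco4 and Aprt (0.94 to 0.95), to Prdx6 Dbi, Metrn and Csrp1 (0.91 to 0.94), and to Nqo1 Ass1, Rgcc and Tst (0.89 to 0.92). To Nfe2l2 they were Pxn, Tmc6 and Reep3 (0.90 to 0.91), to Keap1 Nfil3, Copa and Nsd2 (0.93 to 0.95), and to Gclc Tgoln1, Tmem184b and Vps16 (0.92 to 0.95).

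Beyond the members, 117 antioxidant genes in 9 lists were examined in microglia-like cells. Of 69 measured, 30 were higher in OIR and 7 lower by the rule, beside the 11.6% and 17.6% of all genes given above. With median-of-ratios scaling the counts were 32 and 7. Over all genes measured the median log2 ratio was -0.11, and every list had a median above it. These pooled values compare libraries with unlike microglia states. In the homeostatic state 13 of 69 measured were higher and 6 lower, beside 13.2% and 7.01% of all genes. In the cycling cluster 14 of 68 were higher and 4 lower, beside 7.79% and 5.91%. The haem and iron median, 1.55 in all microglia-like cells, was 0.31 in the homeostatic state and 0.65 in the cycling cluster.

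Haem and iron handling stood furthest apart, with 4 of 5 genes higher and a median of 1.55. Hmox1, which opens the haem ring, had 3552 CPM in OIR and 79.9 CPM in control (log2 ratio 5.47), and the ferritin chains Ftl1 and Fth1 had ratios of 1.89 and 1.55. Among regulators 1 of 8 was higher and 2 lower (median -0.02): Sqstm1, an autophagy adaptor that competes for Keap1, was at 1.41, and the transcription factors Maf and Bach2 were at -1.07 and -0.83. For glutathione synthesis and transport the counts were 2 higher and 2 lower of 8 (median 0.31), with glutathione reductase Gsr at 1.86, glutaredoxin Glrx at 1.39 and the exporter Abcc5 at -1.02.

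Among glutathione peroxidases and transferases 4 of 7 were higher (median 1.03), led by Gpx3 at 1.97, Mgst3 at 1.07 and Gsto1 at 1.05. In the thioredoxin and peroxiredoxin list 5 of 10 were higher and 2 lower (median 0.49), with thioredoxin Txn1 at 1.87, the methionine sulfoxide reductase Msrb1 at 1.38 and Prdx4 at 1.14. NADPH supply had 4 of 9 higher (median 0.26), among them Me2 at 0.89, G6pdx at 0.83 and Pgd at 0.76. G6pdx and Pgd make the reducing power used by both branches. Of the quinone, aldehyde and carbonyl list 5 of 8 were higher (median 0.77), led by biliverdin reductase B, Blvrb, at 1.54, Aldh2 at 1.43 and Ptgr1 at 0.91.

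The superoxide and catalase list had 3 of 8 higher (median 0.49): Cybb, the catalytic subunit of the phagocyte oxidase that makes superoxide, at 2.06, and the dismutases Sod1 and Sod2 at 0.95 and 0.60. ATF4 genes, which respond to amino acid shortage and also include regulators of Slc7a11, had 2 of 6 higher and 1 lower (median -0.01). Psat1, an enzyme of serine synthesis, was at 1.57, Ddit4 at 0.94 and Atf3 at -0.82. Slc3a2, the heavy chain that Slc7a11 needs, was within the limits at 0.18, with 275 CPM in OIR and 243 CPM in control.

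**Figure D4:**
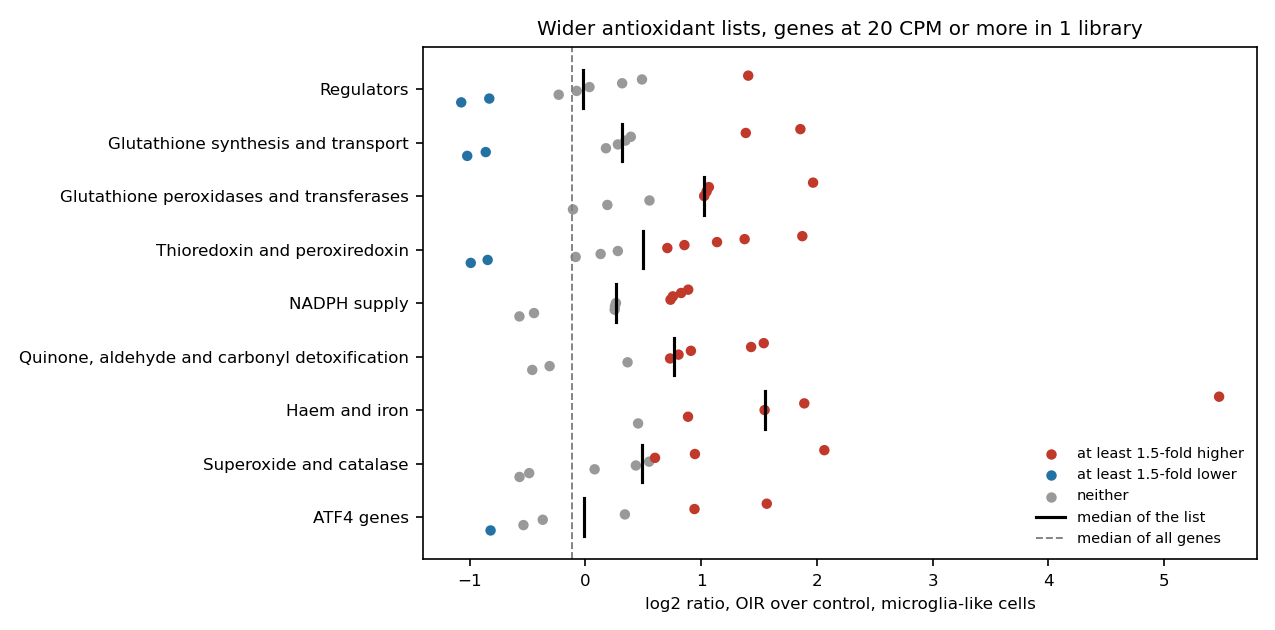
Log2 ratio of OIR over control in microglia-like cells for the 69 genes of 9 wider antioxidant lists that reached 20 CPM in 1 library; red points were at least 1.5-fold higher, blue at least 1.5-fold lower, grey neither, black bars are list medians and the dashed line is the median of all genes, -0.11. Hmox1 stands alone at 5.47, and the haem and iron list has the highest median, 1.55.

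In Müller glia-like cells 9 of the 71 wider genes measured were higher in OIR and 16 lower, beside 7.75% of all genes higher and 11.2% lower. The lists were not uniform: regulators had 3 higher and 1 lower of 8 (median 0.40), ATF4 genes 3 higher and 2 lower of 8 (median 0.15), and haem and iron 1 higher and 1 lower of 4 (median 0.47). In the quinone, aldehyde and carbonyl list 5 of 9 genes were lower and 0 higher (median -0.70), among them Akr1b10 at -1.46, Cbr3 at -1.19 and Aldh2 at -0.99. Of the glutathione peroxidases and transferases 4 of 13 were lower and 1 higher (median -0.42), with Gstm5 at 263 CPM in OIR and 658 CPM in control. Hmox1, at 63.8 CPM in OIR and 2.45 CPM in control, Bach1 (1.32) and Maff (0.77) were higher. Hmox1 was also counted in cone-like cells at 10.4 CPM in OIR and 0.762 CPM in control. In bipolar-like cells it had 26.1 CPM in OIR and 1.80 CPM in control. The part of free RNA in the Müller glia-like values was not tested. The names in this paragraph were taken after their values were seen. In rod-like cells 6 of 46 measured wider genes were higher and 0 lower, beside 4.14% and 1.31% of all genes. In cone-like cells 1 of 49 was higher and 0 lower, beside 3.03% and 2.12%, and in bipolar-like cells 4 of 55 were higher and 4 lower, beside 4.18% and 6.32%.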

How the data were processed

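Single-cell RNA of 2 droplet libraries, 1 per group, was analysed. The deposited matrices hold raw UMI counts per gene and barcode (control 10826 barcodes and 50081145 UMIs, OIR 7283 barcodes and 49773742 UMIs), made by the authors with Cell Ranger 3.0.2 on mm10, per the submitters' processing notes. The members and all gene lists were chosen with earlier results of these data known.

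Cells with at least 500 genes and at most 10% mitochondrial UMIs were kept. Automatic doublet calling marked 0 OIR cells and 1 control cell, so the highest doublet scores were removed at 0.8% per 1000 cells (424 in OIR, 938 in control). With scanpy 1.11.5, log-normalised counts of 2000 variable genes, without the members and wider lists, gave 30 principal components, 20 neighbours and Leiden clusters at resolution 1; immune clusters were clustered again. Clusters were named from marker lists and called "like" that class; a microglia state needed 2 of its genes among the 10 leading genes. Names rebuilt in this way may differ from the authors'.

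UMIs were summed per class and library and scaled to total UMIs. A log2 ratio of OIR over control has an exact 95% conditional binomial interval (scipy 1.17.1). Cells are not replicates, so intervals, and floors of 3 counts set in place of 0, cover counting error only. A gene counted as measured with at least 20 CPM in 1 library, and as past the rule at 1.5-fold with an interval that excluded no difference. All members are named; of each wider list, the 3 genes with the largest absolute ratio in microglia-like cells; and for each member the 3 genes of highest correlation. Alternatives were median-of-ratios scaling, a stricter cell filter (1000 genes, 5% mitochondrial UMIs), means of per-cell CPM, doublets kept, resolution 0.5, members in the clustering, removal of cells over 2% rod UMIs, thinning to 1000 or 2500 UMIs, equal state weights, a 2-fold limit and no minimum CPM. The code was tested on simulated counts.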

Additional observations from a re-analysis of the deposited data

Results flagged for a closer look

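Nfe2l2 differed in direction between cell classes under the same contrast: its log2 ratio of OIR over control was -0.61 in microglia-like cells, 0.75 in rod-like cells and 0.69 in cone-like cells. The difference between classes was not tested, because each group has 1 library.

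Prdx6 was also opposite in direction, with a log2 ratio of 1.74 in microglia-like cells and -1.05 in Müller glia-like cells, and this difference was likewise not tested.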

How the results depend on the processing

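The count of 6 members higher in OIR microglia-like cells was 6 under every alternative for which it was counted except no minimum CPM, where it was 7; it was not counted with equal state weights, which give no interval and moved Gclm to 1.30, Txnrd1 to 0.70, Prdx1 to 1.01, Prdx6 to 1.16, Srxn1 to 3.34 and Nfe2l2 to -0.27. With these weights, the control Spp1-high values of Gclm and Prdx1 came mostly from 1 cell for each gene. No paired analysis was possible because each group has 1 library. The alternatives that leave out the Spp1-high and mixed states, the homeostatic cluster with most OIR cells, the Lad1-led cluster, the 4 cells richest in a gene, or shared barcodes were chosen after seeing the data. The 1 lower member of microglia-like cells became 0 with median-of-ratios scaling, doublets kept, a 2-fold limit or without the Spp1-high and mixed states. In the homeostatic state the 5 higher members became 3 at 2-fold and 0 without the homeostatic cluster with most OIR cells or the 4 richest cells, and the lower count went to 1 in both of these; without the homeostatic cluster with most OIR cells Gclm reversed to -0.95 and Txnrd1 to -0.15. In cycling cells the 1 lower member became 0 without the 4 richest cells, without shared barcodes or at 2-fold. In rod-like cells the 2 higher members became 1 with median-of-ratios scaling, doublets kept, resolution 0.5, members in the clustering or without the Lad1-led cluster, 0 with the stricter filter or at 2-fold, and 4 with means of per-cell CPM or no minimum CPM. In cone-like cells the 1 higher member became 3 with the stricter filter, 2 with means of per-cell CPM, without the 4 richest cells or without shared barcodes, and 0 at 2-fold. In bipolar-like cells means of per-cell CPM gave 1 lower member in place of 0. In Müller glia-like cells the stricter filter gave 3 lower members in place of 1 and reversed Slc7a11 to -1.28. The cause of these changes was not tested. Of the alternative values for ratios past the rule, 181 stayed within the counting interval, 41 moved and 3 reversed. For cycling cells, doublets kept, resolution 0.5 and members in the clustering were not run, since under 20 cells of a library were named cycling. Few UMIs of Nqo1 were counted outside pigment epithelium-like cells, which limits its ratios there. The same held for Slc7a11 outside microglia-like, Müller glia-like and neutrophil-like cells. Both genes had few UMIs also in rod-like cells, where 10001604 UMIs were summed in OIR and 17044889 in control.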
